A study of Caenorhabditis elegans with 2 samples.

Results

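The regions described here were 215 strong ChIP-seq regions on the X chromosome of Caenorhabditis elegans, each in front of 1 protein-coding gene. They were chosen by the authors' deposited signal in the list of 30000 regions called on the pooled reads. Of the 3000 regions with the highest signal, 628 had their summit on X, and 215 of these lay from 0 to 1000 bp upstream of a transcript start of exactly 1 protein-coding gene, on the strand of that gene. Of the other strong X regions, 121 had a gene of the tRNA, snoRNA, snRNA or rRNA class within 200 bp, 285 had no protein-coding start within 1000 bp downstream, and 7 had the starts of more than 1 gene there. Each listed summit was counted as 1 region. Pairs of regions shared a gene at 14 genes, and every other region had a gene of its own. They were compared with sets that met the same rule otherwise, namely 663 strong autosomal regions, and 906 weaker X regions ranked below 3000.

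Chromatin immunoprecipitation and sequencing was done for tagged PAT-9 in whole late embryos of strain RW12085, with an age label of 3 hours, sexes pooled and an antibody against GFP. There was 1 group of 2 biological replicates, and all samples carried the same modified pat-9 gene, so no second genotype or treatment could be compared. The control library was not analysed here. The labels conflict on the tag, which the strain entry gives as mNG with 3xFlag placed by CRISPR at pat-9 and other entries give as an eGFP fusion or as GFP-FLAG at the C terminus.

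PAT-9 is a zinc finger transcription factor of the C2H2 type that is needed for body wall muscle to form and contract. Body wall muscle is 1 of many tissues in a whole embryo, and enrichment here is the sum over all its cells, so fewer bound cells and less binding per cell cannot be told apart. The X chromosome of the worm is present in more copies in hermaphrodites than in males, and a dosage compensation complex, recruited at X sites that hold the MEX motif, lowers X transcription in hermaphrodites.

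The summits of the strongest X regions are printed first, because they show the repeats and GC-rich words that recur at these sites. Each window holds the summit base with 50 bp on each side, on the strand of the gene and on build ce11 (WBcel235), with the sequence from the RefSeq assembly. Capitals mark, on either strand, the GA repeat GAGAGA, the MEX core GCGCAGGG and 9 words of 6 bases that were more frequent at X summits than in flanking sequence or at autosomal summits and that are spelled out with their shares in the account of sequence words.
T13C5.6 (chrX:6207804-6207904, minus strand): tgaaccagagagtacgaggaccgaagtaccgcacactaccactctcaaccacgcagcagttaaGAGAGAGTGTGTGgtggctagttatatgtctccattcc
ftt-2 (chrX:11605888-11605988, minus strand): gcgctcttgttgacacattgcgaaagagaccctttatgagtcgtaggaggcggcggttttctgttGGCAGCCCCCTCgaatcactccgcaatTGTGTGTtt
spat-3 (chrX:4606450-4606550, minus strand): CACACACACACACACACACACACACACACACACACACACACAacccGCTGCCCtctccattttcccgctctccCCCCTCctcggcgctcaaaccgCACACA
ftt-2 (chrX:11606090-11606190, minus strand): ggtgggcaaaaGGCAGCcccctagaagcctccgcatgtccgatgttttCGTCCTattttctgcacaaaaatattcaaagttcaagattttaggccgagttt
sto-4 (chrX:11643917-11644017, plus strand): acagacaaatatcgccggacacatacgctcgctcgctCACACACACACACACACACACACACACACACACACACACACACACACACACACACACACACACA
sms-2 (chrX:949614-949714, minus strand): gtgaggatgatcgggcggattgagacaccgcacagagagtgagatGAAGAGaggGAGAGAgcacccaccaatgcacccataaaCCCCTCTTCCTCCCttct
The windows of T13C5.6, both ftt-2 regions and spat-3 also covered an annotated noncoding RNA exon. The windows at spat-3 and sto-4 held long CA repeats. Runs of CA of at least 20 bases were in 5 of 215 X windows (2.33%) and in 6 of 663 autosomal windows (0.905%), a difference that was not tested. Whether reads from such repeats were placed uniquely was not tested either.

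Signal was highest at T13C5.6, a gene with no assigned name, and at ftt-2, which encodes a 14-3-3 adaptor protein. The T13C5.6 region (chrX:6207675-6208038) had a pooled signal of 454 and rank 17 of 30000, and the strongest overlapping regions had signals of 146 in replicate 1 and 309 in replicate 2. The first ftt-2 region had a pooled signal of 449, and 159 and 296 in the replicates. Both replicates placed these sites among their strongest, at ranks 34 and 12 for T13C5.6 and 23 and 17 for ftt-2. Signals are on the authors' scale, which holds within a list, so the replicate values are not compared with each other in size.

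The next genes in order of signal were spat-3, sto-4 and sms-2. spat-3, which encodes a RING protein of a Polycomb-type ubiquitin ligase, had a pooled signal of 257, with 114 in replicate 1 and 146 in replicate 2. sto-4, a stomatin gene, had a pooled signal of 213, with 84.5 and 131. For sms-2, a sphingomyelin synthase gene, the pooled signal was 196, with 74.4 and 118. These 3 sites stood within rank 218 of each replicate's list. The remaining named strong regions were those of ZK816.3 (188), dim-1 (179), C14A11.9 (168), kin-29 (165), a salt-inducible kinase gene, and spc-1 (164), the alpha spectrin gene, with further regions of ftt-2 (234) and spat-3 (175).

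Over all 215 regions the pooled signal had a median of 79.4 and ran from 59.6 to 454. The autosomal regions had a median of 76.1 and ran from 59.6 to 593. As the rule used this signal, the values are a description. At the rank limit the last regions inside were those of mua-6, an intermediate filament gene (59.67, rank 2982), gap-2, a Ras GTPase-activating protein gene (59.60, rank 2993), and kin-20, a casein kinase gene (59.59, rank 2995). The first outside were those of C33G3.5 (59.39, rank 3024), ser-2, a tyramine receptor gene (59.26, rank 3043), and crb-1, a Crumbs homologue (59.10, rank 3068).

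The authors' optimal list, which passed their reproducibility filter, held 60 of the 215 regions (27.9%). It held 2.45% of all pooled regions and 24.5% of the 3000 strongest, and 140 of the 663 autosomal regions (21.1%). Among the 215 regions the last inside this list was that of ugt-50 (rank 724) and the first outside was that of svh-5 (rank 747). Membership thus followed the pooled signal that the rule used, and it is no separate evidence for these regions. All 215 regions overlapped a region in replicate 2's list and 210 overlapped one in replicate 1's. The 5 without one in replicate 1 were those of epg-7, zig-12, rpl-11.2 and C33G3.6 and 1 of alg-1. Replicate 1 ranked 121 of the 215 (56.3%) among its own 3000 strongest and replicate 2 ranked 163 (75.8%). Both did so for 89 (41.4%), against 287 of 663 (43.3%) on autosomes, and neither did for 20. Median ranks were 1894 of 30000 in replicate 1 and 1441 in replicate 2, and the lowest were 29703 and 22777. Across the 210 regions Spearman's rho between the replicates' signals was 0.31, given as a description, since the regions were selected on the pooled signal and 10 regions shared their strongest replicate region with a neighbour.

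**Figure D1:**
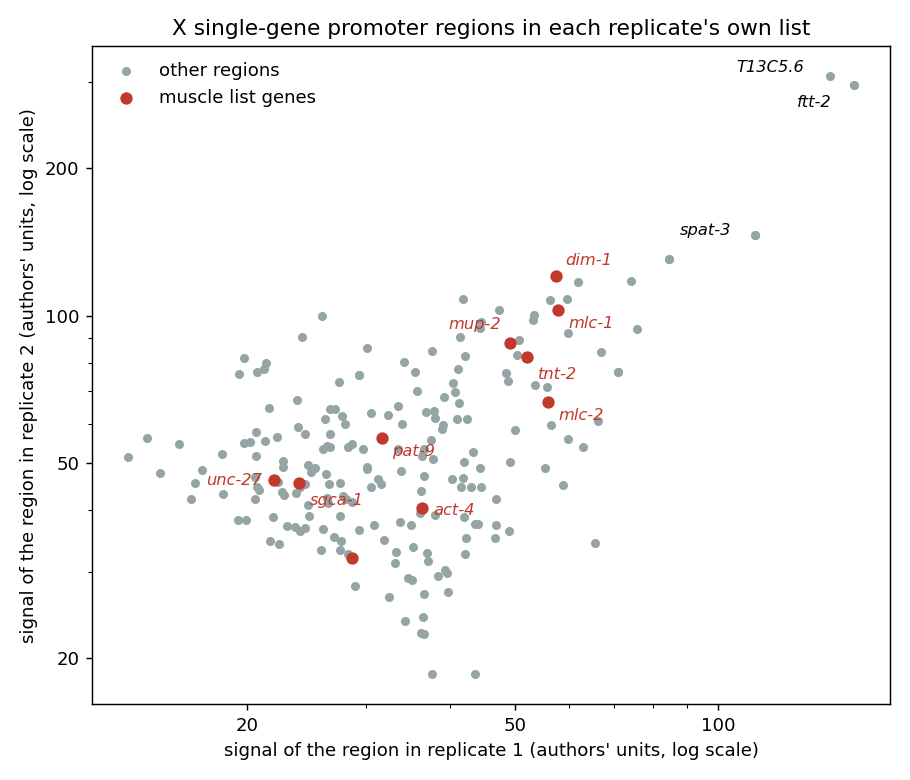
Signal of the 210 X regions with a region in both lists, replicate 1 on the horizontal and replicate 2 on the vertical axis (authors' units, log scales); each point is 1 region. T13C5.6, ftt-2 and spat-3 are the highest in both replicates, and muscle genes (red) run in replicate 1 from unc-27 (21.97) to mlc-1 (57.8) and in replicate 2 from the second act-4 region (32.0) to dim-1 (121).

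The muscle genes among these regions mostly encode parts of the contractile apparatus. Of 2731 protein-coding genes on X, 7.36% had a member region. Of 28 X genes on 4 muscle lists, 9 (32.1%) had one. Those lists were drawn up with earlier results of these data known, so the counts are descriptions with no test. Of the 19 others, 9 had only a weaker pooled region upstream and 10 had none.

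In the sarcomere list 6 of 10 X genes had a member region. mlc-1 and mlc-2, neighbouring genes for the regulatory light chains of myosin, had pooled signals of 161 and 115.2. The replicate signals were 57.8 and 102.8 for mlc-1 and 55.9 and 66.7 for mlc-2. Both were within the 735 optimal peaks, as were the troponin T genes mup-2 (131; replicates 49.1 and 87.9) and tnt-2 (127; replicates 52.1 and 82.3). The actin gene act-4 had regions at 2 of its starts, with pooled signals of 69.9 and 62.04. Replicate signals were 36.4 and 40.5 for the first and 28.7 and 32.0 for the second. The troponin I gene unc-27 had 67.9, with 21.97 in replicate 1, where it ranked 9366, and 46.3 in replicate 2, where it ranked 1812. The sarcomere genes below the rank limit were myo-2, a myosin heavy chain gene of the pharynx (44.5, rank 7334), unc-78, an actin-interacting protein gene (41.4, rank 9058), and the troponin T gene tnt-3 (40.2, rank 9870). The troponin I gene tni-1 had no pooled region upstream.

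In the attachment list 1 of 5 X genes had a member region. This was dim-1, which encodes an immunoglobulin-domain protein that keeps the myofilament lattice in order (179; replicates 57.4 and 121). unc-97, the PINCH gene of muscle attachments (57.2, rank 3385), and unc-96 (55.3, rank 3720) fell just below the rank limit, unc-98 lay further down (42.4, rank 8479), and the profilin gene pfn-3 had no pooled region upstream. Of 8 genes for muscle excitability and junctions, the alpha sarcoglycan gene sgca-1 alone was a member (67.1; replicates 23.9 and 45.5). sup-10 (rank 5400), lev-8 (rank 15393) and unc-58 (rank 22578) had weaker regions, and egl-36, slo-2, twk-18 and unc-9 had none.

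Of 5 X genes for myogenic and mesodermal factors, pat-9 itself was the member. Its region (chrX:16536277-16536706) had a pooled signal of 83.7 and rank 1135, with 31.7 in replicate 1 at rank 2486 and 56.2 in replicate 2 at rank 1074. The summit lay 398 bp upstream of a pat-9 start, and both replicates placed it within their 3000 strongest. hlh-8, hnd-1, lim-4 and mls-2 had no pooled region upstream. Summit windows of the 4 strongest muscle regions follow, with that of pat-9, added because it is the tagged gene, and capitals as above.
dim-1 (chrX:8053109-8053209, minus strand): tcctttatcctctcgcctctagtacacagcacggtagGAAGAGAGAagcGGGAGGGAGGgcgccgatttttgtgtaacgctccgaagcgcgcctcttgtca
mlc-1 (chrX:17459054-17459154, plus strand): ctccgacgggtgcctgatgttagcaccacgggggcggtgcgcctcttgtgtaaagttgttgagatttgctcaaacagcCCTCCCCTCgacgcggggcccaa
mup-2 (chrX:6410464-6410564, minus strand): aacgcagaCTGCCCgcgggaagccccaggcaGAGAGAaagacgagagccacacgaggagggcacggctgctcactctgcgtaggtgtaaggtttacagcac
tnt-2 (chrX:8723985-8724085, minus strand): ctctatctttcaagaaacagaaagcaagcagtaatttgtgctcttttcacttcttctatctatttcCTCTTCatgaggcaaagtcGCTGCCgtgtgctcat
pat-9 (chrX:16536442-16536542, plus strand): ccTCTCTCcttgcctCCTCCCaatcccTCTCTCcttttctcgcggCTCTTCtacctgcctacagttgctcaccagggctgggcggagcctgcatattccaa
The dim-1 and mup-2 windows partly covered annotated noncoding RNA exons. GAGAGA was present at dim-1, mup-2 and pat-9, where it occurred at 2 places, and absent from the mlc-1 and tnt-2 windows.

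Genes of the X signal and of dosage compensation had member regions at 3 of 6 (50%). fox-1, which encodes an RNA-binding X signal, had a pooled signal of 79.4, with 30.1 and 48.6 in the replicates. sdc-2, the gene that directs the dosage compensation complex to X in hermaphrodites, had 64.1, with 20.8 and 43.96. ceh-39, a homeodomain X signal gene, had 61.8, with 21.6 and 34.6. All 3 fell outside the 3000 strongest of replicate 1, at ranks 3004 to 10963, and fox-1 and sdc-2 were inside those of replicate 2, at ranks 1596 and 2085. sdc-1 (rank 5268) and sex-1 (rank 12625) had weaker regions, and xol-1 had none.

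Other lists held few members in number, with shares both above and below that of all X genes. Among cytoskeleton and adhesion genes 2 of 6 were members, spc-1 and unc-115, an actin-binding protein gene (78.5). Of 8 basement membrane genes, let-2 alone, a type IV collagen gene, had one (111). Nuclear hormone receptors had 4 of 27, led by nhr-48 (111), nhr-1 (78.4) and nhr-40 (71.3), and zinc finger factors had 2 of 6, ztf-13 (94.7) and zfp-3 (86.4). A single member each came from 27 homeobox genes (ceh-39), 10 bHLH genes (mdl-1, a Mad-type factor, 149), 22 genes of neuronal transmission (syd-2, a liprin gene, 125), 25 acetylcholine receptor and ligand-gated channel genes (acr-12, 103.9), 37 neuropeptide genes (ins-39, an insulin-like gene, 67.0), 6 innexins (inx-3, 67.1), 5 chromatin genes (lin-15B, 71.5) and 2 ribosomal protein genes (rpl-11.2, 63.1). None of 33 chemoreceptor, 30 cuticle collagen, 20 potassium channel, 12 signalling and guidance, 3 C-type lectin and 3 T-box genes had a member region. Against the 7.36% of all X genes, the neuropeptide (2.70%), homeobox (3.70%), receptor channel (4%) and neuronal (4.55%) shares were lower, without a test. Higher shares were those of ribosomal protein (50%), cytoskeleton and adhesion (33.3%), zinc finger (33.3%), chromatin (20%) and innexin genes (16.7%). Nuclear hormone receptor (14.8%), basement membrane (12.5%) and bHLH genes (10%) were also higher. A share above that of all X genes was thus not particular to the muscle lists.

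Pairs of member regions were found at 14 genes. For ftt-2, spat-3, sto-4, epn-1, an epsin gene, and grk-1 the summits lay 200 to 212 bp apart, and the regions of each pair had the same strongest overlapping region in each replicate, so their replicate signals are shared. The ftt-2 pair was 2 summits of the same interval, and the intervals of the other pairs named here overlapped. Counted as separate regions, these have upstream windows that can fall on the summit window of the partner. Replicate 2 listed more than 1 region at all 5 of these sites and replicate 1 at 4. At madd-3, a gene named for its muscle arm defect, the 2 summits lay 4684 bp apart, at different starts, with signals of 113 and 82.5. The widest such pair was at gap-2, 15714 bp apart. Members were spread along the chromosome with a median of 47278 bp between neighbouring summits. Per megabase the members numbered from 7 to 20, and their share of the genes there was highest at 14.5% between 15 and 16 Mb and lowest at 4.52% between 12 and 13 Mb.

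Strong regions made up a larger share of the single-gene promoter regions on X than on any autosome, which is again a description, since the pooled signal made the list. Of 1121 pooled X regions in front of 1 gene, 19.2% were among the 3000 strongest, compared with 11.2% of 5926 autosomal ones. By autosome the share ran from 9.85% on IV and V to 12.6% on I. Over all pooled regions, whatever their position, 13.5% on X and 9.36% on autosomes were among the 3000 strongest, so the higher share was not limited to single-gene promoters. There were 12.1 regions per Mb on X and 8.03 on autosomes, while X had 154 protein-coding genes per Mb and autosomes 209.

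The starts behind the X regions lay further from the next protein-coding gene upstream than those behind the autosomal regions. The distance from the gene's start to the next protein-coding gene upstream had a median of 3889 bp for the X regions, compared with 1881 bp for the autosomal ones. A start inside another protein-coding gene counted as 0 bp, and 1 bp was added before taking log10. The distance therefore overlaps in part with the count of summits inside another gene, given below. The mean log10 distance was 3.56 ± 0.52 (SD, n = 215) on X and 3.13 ± 0.88 (SD, n = 663) on autosomes, a difference of 0.43 with a 95% interval of 0.33 to 0.52 (permutation test, two-sided, p = 1e-05, the smallest that 100000 resamples can give). All X genes, measured from their outermost start, had a median of 2112 bp and all autosomal genes 825 bp, so the whole chromosome differed the same way. Their mean log10 distances were 3.12 and 2.76. Distances of regions were taken from the start nearest the summit and, at internal starts, can include part of the gene's own body. They are therefore not the same measure as the distances of all genes. The rule also left out summits within 1000 bp upstream of a second gene's start. This removed some genes with a near neighbour from every set of regions, but not from the sets of all genes. Within X the mean log10 distance of the member regions was also higher than that of weaker regions (difference 0.18, interval 0.09 to 0.27, permutation p = 0.0044). Lower quartiles were 1809 bp for members and 1331 bp for weaker regions, and medians were 3889 and 3416 bp. The upper quartiles went the other way, at 8370.5 and 8705 bp, so the difference lay at the shorter distances. P-values over regions describe these lists, and not the spread between embryos.

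**Figure D2:**
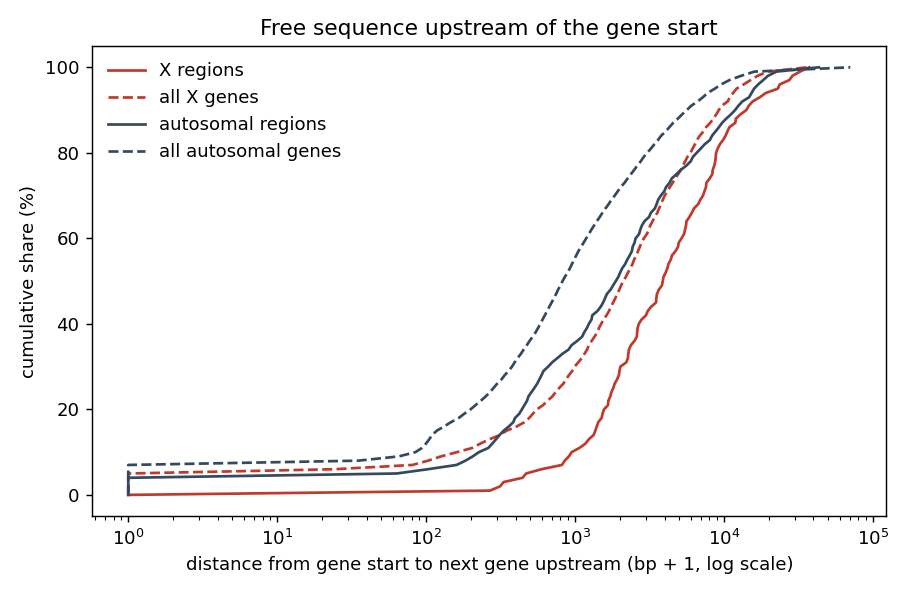
Cumulative share (vertical axis, %) of regions (solid) and of all protein-coding genes (dashed) by the distance from the gene start to the next protein-coding gene upstream (horizontal axis, bp + 1, log scale), for X (red) and autosomes (dark). The X regions lie furthest to the right, with a median of 3889 bp. Distances of regions run from the start nearest the summit, and those of all genes from the outermost start. The rule also left out summits within 1000 bp upstream of a second gene's start, a limit not set for all genes.

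Summits of the X regions were rarely inside another gene. This was so for 1 of 215 (0.465%), the rgs-2 region inside nhr-27, compared with 85 of 663 autosomal regions (12.8%). The log2 odds ratio, with 0.5 added to each count, was -4.40 (Fisher's exact test, two-sided, adjusted p = 8.98e-10), in a test chosen after the values were seen. It was -4.64 with the regions of replicate 1 alone and -2.62 with those of replicate 2 alone (exact test, adjusted p = 5.72e-07 for the latter). Compared with weaker X regions it was -4.14 (exact test, adjusted p = 1.37e-08), so weaker X regions did not share the low count. Shares over all X and all autosomal promoters are not given here. Internal starts, where the summit lay inside the body of its own gene, made up 46 X regions (21.4%) and 138 autosomal ones (20.8%). Summits in exons were few on X, with 2 in coding exons (0.930%) and 5 in UTR exons (2.33%). Autosomal regions had 30 (4.52%) and 53 (7.99%), a difference that was not tested.

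Annotated noncoding RNA genes, without the 4 small RNA classes and without piRNA genes, lay within 200 bp of the summit at 57 X regions (26.5%) and 87 autosomal regions (13.1%). Pseudogenes were not counted either, and the shares over all X and all autosomal promoters are not given here. The log2 odds ratio was 1.26 (Fisher's exact test, adjusted p = 1.11e-05, adjusted over this test and that for other genes, both chosen after the values were seen). Compared with weaker X regions it was 0.83 (exact test, adjusted p = 0.0018). Among the 12 strongest regions, T13C5.6, ftt-2, spat-3, sto-4, ZK816.3 and dim-1 had such a gene at a summit. The part that these transcripts or their annotation play in the signal was not tested.

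Summits lay a mean of 372 ± 254 bp (SD, n = 215) upstream of the start on X and 381 ± 280 bp (SD, n = 663) on autosomes, with medians of 324 and 291 bp. The rule kept summits from 0 to 1000 bp upstream in each set, which bounded these distances in advance. The tests compare positions within that span only. The difference of -8.22 bp between the means had a 95% interval of -48.3 to 31.9 bp and did not pass the test (permutation p = 0.70). With the regions of replicate 1 alone it was -54.6 bp (permutation p = 0.033), and with those of replicate 2 alone it was 25.8 bp (p = 0.22). Within 500 bp lay 150 of the X summits (69.8%). The most frequent distances were 100 to 199 bp, for 39 regions, among them mlc-1 at 106 bp.

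**Figure D3:**
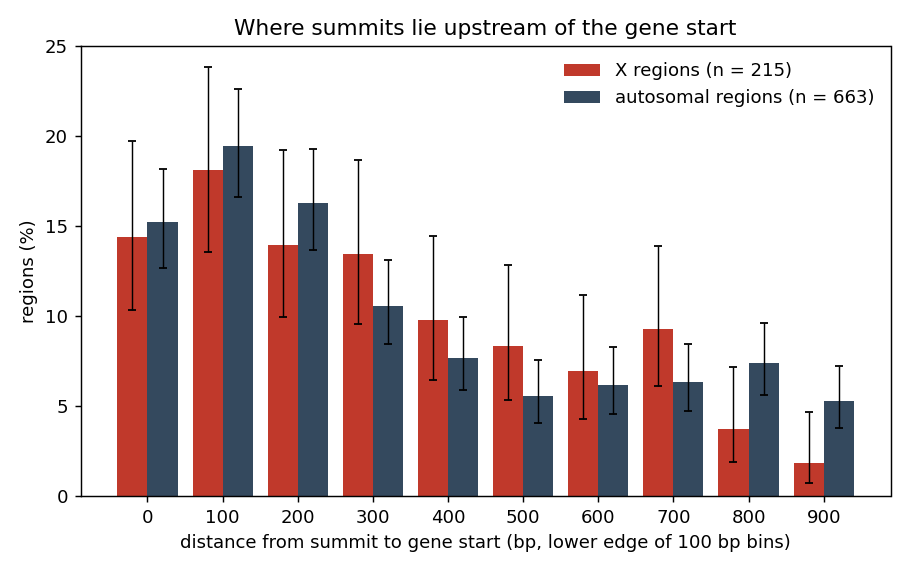
Share of X regions (red, n = 215) and autosomal regions (dark, n = 663) by distance from summit to gene start in bins of 100 bp; bars start at 0 and lines are Wilson 95% intervals. Both sets are most frequent at 100 to 199 bp (18.1% on X, 19.5% on autosomes), and their intervals overlap in every bin.

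X summits were rich in G and C. Within 50 bp of the summit GC was 50.9 ± 8.41% (SD, n = 215) on X, 46.7 ± 8.66% (n = 663) at autosomal summits and 42.01 ± 9.07% (n = 906) at weaker X summits. X exceeded autosomes by 4.28 percentage points (95% interval 2.97 to 5.58, permutation p = 1e-05) and weaker X regions by 8.93 points (interval 7.67 to 10.2, p = 1e-05), each at the smallest p that 100000 resamples can give. The 500 bp upstream of all genes held 34.97% GC on X and 33.9% on autosomes, a smaller gap. Of the named regions, lin-15B had 64.4%, mlc-1 and mup-2 61.4% each and pat-9 58.4%, while zfp-3 was the lowest at 21.8%.

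The excess lay at the centre of the regions. In the window 200 bp upstream GC averaged 37.8% on X and 37.4% on autosomes. The rise from that flank to the summit was 13.2 ± 12.6 points (SD, n = 215) on X (sign-flip permutation p = 1e-05), with 181 of 215 regions higher at the summit. On autosomes the rise was 9.27 ± 11.8 points (n = 663), and the rises differed by 3.90 points (interval 1.99 to 5.80, permutation p = 3e-05, a test added after the values were seen). At 400 bp upstream X regions held 31.8% and autosomal regions 34.9%, an order opposite to that at the summit, which was not tested. How far GC content of the fragments itself moved the signal was not tested.

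**Figure D4:**
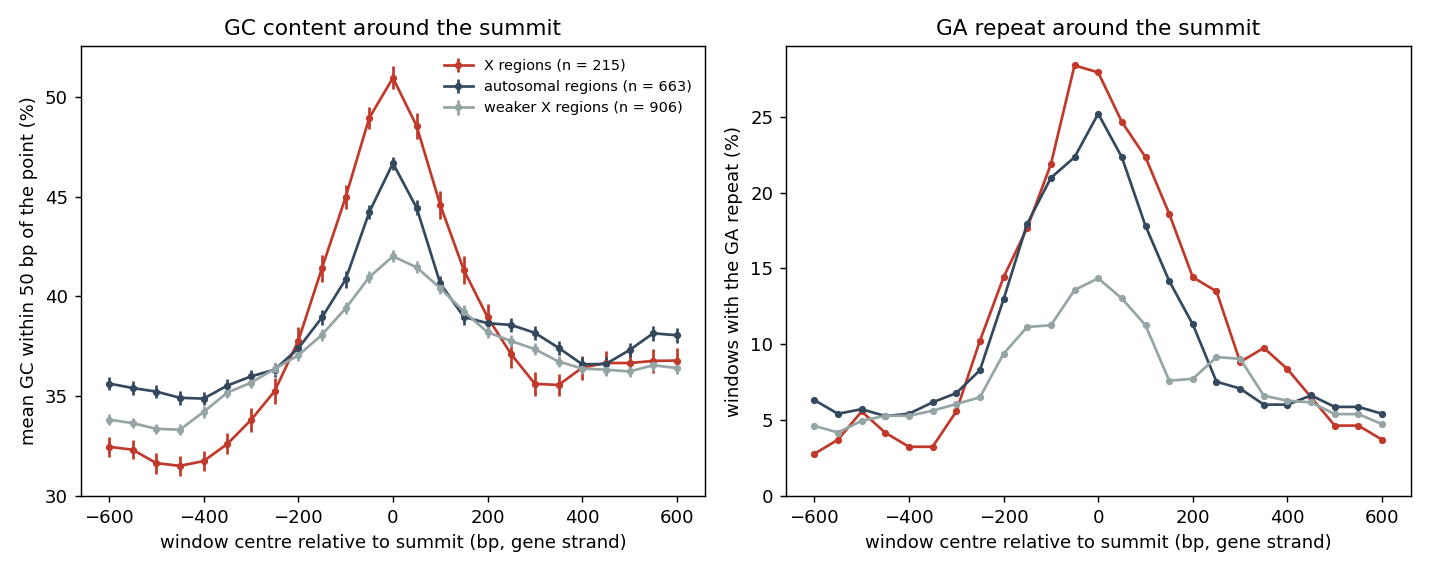
Left, mean GC (%) with its standard error, and right, share (%) of windows with the GA repeat, in windows of 50 bp on each side of points from -600 to 600 bp around the summit on the gene strand, for X regions (red, n = 215), autosomal regions (dark, n = 663) and weaker X regions (grey, n = 906). At the summit X regions hold 50.9% GC, autosomal 46.7% and weaker X 42.01%, and the GA repeat is in 27.9%, 25.2% and 14.3%.

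Words rich in C and T and CA repeats were more frequent at X summits than beside them, and words rich in A and T were less frequent. Every word of 6 bases, reverse complements joined, was counted in the summit window and in the window 200 bp upstream (exact McNemar test, Benjamini-Hochberg adjusted p under 0.05). Of these, 47 (2.26%) were more frequent at summits and 78 (3.75%) less frequent. CCCCTC was in 14.9% of X summits and 0.930% of flanks (exact test, adjusted p = 2.89e-05), and CCTCCC in 14.9% and 1.86% (adjusted p = 5.24e-05). CACACA was in 26.05% and 8.84% (exact test, adjusted p = 0.00011). The other 8 of the 10 words with the smallest p were rich in A and T and fell, led by AAAATT, present in 7.44% of summits and 35.3% of flanks (exact test, adjusted p = 1.06e-07). The rest of these were ATTGAA at 4.19% and 22.8%, AAATTT at 2.79% and 19.5%, TTGAAA at 7.44% and 27.9%, TCAAAA at 6.98% and 25.6%, AAAACT at 3.26% and 19.5%, AATTTG at 3.72% and 19.1%, and AATTGA at 5.58% and 23.3%. CCCCTC stood in 2.86%, CCTCCC in 3.22% and AAAATT in 36.6% of all X promoters, taken as 50 bp on each side of the point 250 bp before each gene start.

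The replicates differed in these counts. The list of replicate 2 alone gave 41 more frequent and 69 less frequent words. That of replicate 1 alone, with 154 regions, gave 0 of either kind at the adjusted threshold, and 68 more frequent and 86 less frequent ones at an unadjusted p under 0.05 by the same McNemar test. With 25 bp on each side of the summit 0 words were more frequent and 14 less frequent, with 94 and 108 unadjusted. The GC rise was 8.18 points in the regions of replicate 1 and 12.3 points in those of replicate 2, and the part of base composition in the word counts was not tested.

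Compared with autosomal summits, 9 words (0.433%) were more frequent on X and 6 (0.288%) less frequent (Fisher's exact test, adjusted p under 0.05). GCTGCC was in 12.6% of X and 3.62% of autosomal summits (exact test, adjusted p = 0.0081), and in 1.76% and 1.35% of all X and all autosomal promoters. CTCTTC was in 25.1% and 12.1% (exact test, adjusted p = 0.0081), and in 6.66% and 5.79% of all promoters. CACACA was in 26.05% and 14.2% (exact test, adjusted p = 0.024), and in 6.52% and 4.74% of all promoters. AGGACG (9.30% and 2.26%) and GACGTA (4.65% and 0.302%) were less frequent overall and differed too (exact test, adjusted p = 0.011 for each). CTGCCC (10.2% and 3.02%) overlaps the word GCTGCC by all but 1 base, and ACACAC (22.8% and 11.5%) overlaps the word CACACA likewise, so they are not separate findings. Among the 10 with the smallest p, AATTTG (3.72% and 13.9%), AAAACT (3.26% and 12.2%) and AAAATT (7.44% and 17.9%) were less frequent on X. All X and all autosomal promoters held AATTTG in 16.3% and 20.4%, AAAACT in 22.2% and 23.8%, and AAAATT in 36.6% and 45.8%. The part of the higher GC at X summits in these word differences was not tested. With 25 bp on each side no word passed, with 85 higher and 49 lower on X at an unadjusted p under 0.05, and the list of replicate 1 alone gave 7 words in all.

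Of 16 fixed motifs, 0 (0%) differed between X and autosomal summits by Fisher's exact test after adjustment, and 2 did at an unadjusted p under 0.05. The GA repeat GAGAGA was in 60 X summits (27.9%, Wilson interval 22.3 to 34.2%) and 167 autosomal ones (25.2%, 22.03 to 28.6%), with a log2 odds ratio of 0.21 (Fisher's exact test, adjusted p = 0.82, odds ratio interval 0.80 to 1.64). Weaker X summits had it in 14.3% (log2 odds ratio 1.21, exact test, adjusted p = 5.39e-05). All X promoters held it in 8.20% and all autosomal promoters in 6.21%. It was on the coding strand alone in 22 X regions and on the other strand alone in 38. From 2.79% at 600 bp upstream the share climbed to 28.4% at 50 bp upstream of the summit. With 100 bp on each side of the summit the log2 odds ratio between X and autosomes was 0.55 (exact test, adjusted p = 0.045). With 50 bp on each side and combined over strata of GC content it was 0.05 by the Mantel-Haenszel method and did not pass the test.

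The core of the MEX motif, GCGCAGGG, was in the windows of 3 X regions (1.40%, Wilson interval 0.476 to 4.02%) and of 0 of 663 autosomal regions, which allows a share of up to 0.452% by the limit of 3 counts and of 0.576% by the Wilson interval. The exact lower bound of the odds ratio was 1.28 (Fisher's exact test, unadjusted p = 0.015, adjusted p = 0.16), and with 100 bp on each side the adjusted p was 0.045. All X promoters held it in 0.110%, all autosomal promoters in 0.0232% and weaker X summits in 0.221%. The regions were those of nspc-17, of a nematode-specific peptide family, ins-39, and jkk-1, a JNK kinase gene. Their pooled signals were 117, 67.0 and 65.8. The replicate signals were 48.8 and 73.7 for nspc-17, 20.6 and 57.8 for ins-39, and 39.4 and 30.2 for jkk-1. Their windows follow with that of twf-2, a twinfilin gene. Among the X regions, twf-2 and C25B8.8 held the longest GA repeats (15 bases each), and twf-2 had the higher signal. The jkk-1 window was shortened where it reached the first exon.
nspc-17 (chrX:14525883-14525983, minus strand): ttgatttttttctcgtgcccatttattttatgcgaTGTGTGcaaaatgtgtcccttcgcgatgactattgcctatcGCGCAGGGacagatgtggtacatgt
ins-39 (chrX:1345017-1345117, minus strand): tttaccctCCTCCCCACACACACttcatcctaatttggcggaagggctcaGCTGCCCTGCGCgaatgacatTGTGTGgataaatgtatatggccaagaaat
jkk-1 (chrX:5368389-5368467, plus strand): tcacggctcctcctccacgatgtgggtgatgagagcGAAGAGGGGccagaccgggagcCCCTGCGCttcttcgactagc
twf-2 (chrX:16445936-16446036, plus strand): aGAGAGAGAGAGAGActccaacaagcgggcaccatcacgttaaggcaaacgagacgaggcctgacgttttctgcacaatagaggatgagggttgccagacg
The 3 regions with the MEX core had pooled ranks of 531, 2061 and 2186, and nspc-17 alone was in the authors' optimal list. The twf-2 window also covered part of an annotated noncoding RNA exon. GA runs of at least 10 bases were in 3 of 215 X windows (1.40%) and 31 of 663 autosomal windows (4.68%), a difference that was not tested. The longest autosomal run had 92 bases.

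Sites of muscle and developmental factors passed no test of difference between X and autosomal summits. The E-box CAGCTG, preferred by MyoD-type factors, was in 5.12% and 4.83% (exact test, adjusted p = 0.98), the E-box CACCTG in 1.86% and 2.87%, and the CArG box, bound by serum response factor, in 0.465% and 0.603%. Sites of GATA type (AGATAA 2.33% and 3.47%, TGATAA 1.40% and 3.17%) and the PBX-HOX type TGATNNAT (2.33% and 3.62%) had adjusted p-values of 0.61 or more by the exact test, and the MEIS-type site TGACAG was in 4.19% and 1.81% (exact test, adjusted p = 0.36). All X and all autosomal promoters held CAGCTG in 1.54% and 1.83%, below both sets of summits. They held AGATAA in 6.70% and 6.70% and TGATAA in 11.3% and 10.5%, above both sets. CACCTG, in 1.76% and 2.33%, was near them. These shares were not tested against the summits. CGCGCC was the second motif with an unadjusted p under 0.05, in 5.12% of X and 10.4% of autosomal summits (exact test, adjusted p = 0.16). The GC box CCCGCC was in 11.2% and 8.75%, the word CGCCGC in 9.30% and 8.75%, the CACCC box in 17.7% and 16.3% and the TATA box TATAAA in 5.58% and 5.73%, with overlapping intervals, as the plot of motif shares shows.

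**Figure D5:**
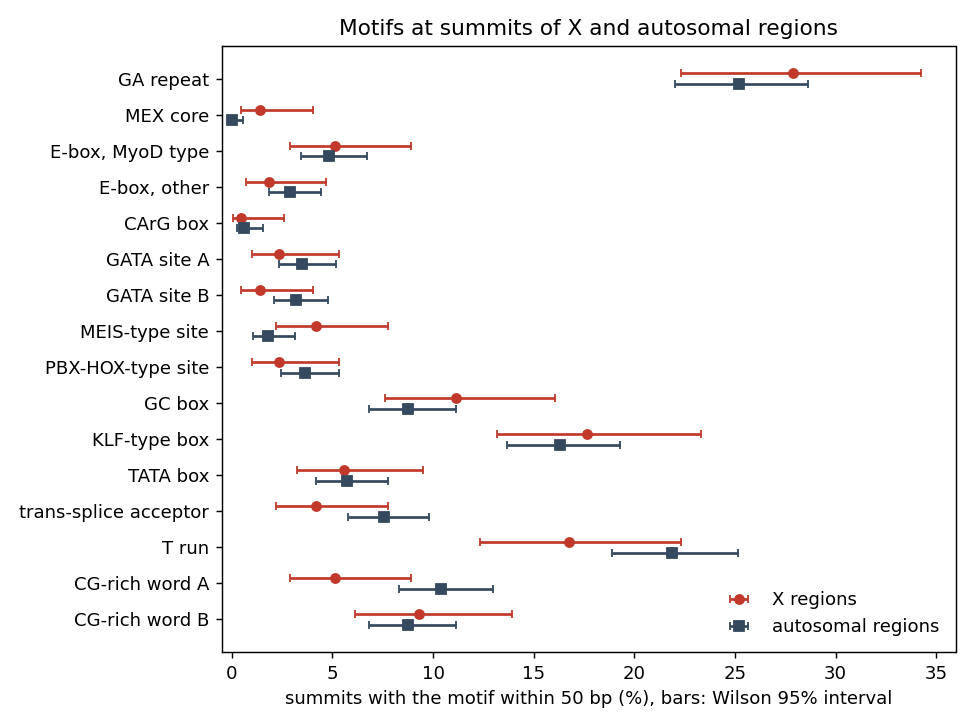
Share of summits with each of 16 fixed motifs within 50 bp (horizontal axis, %), for X regions (red circles, n = 215) and autosomal regions (dark squares, n = 663), with Wilson 95% intervals that cover counting error only. The GA repeat is the most frequent in both (27.9% and 25.2%), and the MEX core is the one motif with 0 autosomal windows.

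Compared with weaker X regions, several motifs differed by Fisher's exact test. Besides the GA repeat, CCCGCC (11.2% against 4.86%, exact test, adjusted p = 0.0065) and CGCCGC (9.30% against 3.75%, adjusted p = 0.0070) were more frequent at the strong summits. The T run TTTTTT (16.7% against 36.8%, exact test, adjusted p = 1.12e-07), TGATAA (1.40% against 6.40%, adjusted p = 0.0070) and the trans-splice acceptor TTTCAG (4.19% against 10.4%, adjusted p = 0.0096) were less frequent. GC content moved with these differences, at 50.9% against 42.01%, and its part in them was not tested.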

How the data were processed

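Per the text deposited with the lists, regions of each replicate were called on its own alignments with a control, the pooled list on both, and the optimal list by IDR, all on ce11. The sources used here do not give the aligner, peak caller or IDR threshold, and read depth is unknown. The authors' deposited signal value per region was used to rank regions within a list, and the deposited −log10 q and score were not used for any result. Of the 215 regions 209 are 430 bp wide with the summit at the centre, which limits resolution. 

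Genes came from Ensembl's annotation of WBcel235, on the same assembly as ce11, and bases from the RefSeq assembly. Differences in means were tested by permutation with 100000 resamples, words by exact McNemar or Fisher tests and motifs by Fisher tests, with Benjamini-Hochberg adjustment over all words of 6 bases or 16 motifs. Motifs were searched on both strands, and GAGAGA shares bases with CTCTTC where they adjoin. Intervals of a difference are normal approximations, and Wilson intervals cover counting error only. A region's replicate signal is that of the strongest overlapping region in that list. The tests were tested on simulated data. The work used pandas 2.3.3, SciPy 1.17.1, NumPy 2.4.6, matplotlib 3.10.9 and statsmodels 0.14.6 under Python 3.11.15.

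The regions, gene lists and motifs were chosen with earlier results of these data known. Named were the 12 strongest regions, 3 on each side of the rank limit, all regions of muscle list genes, up to 3 per other list, up to 5 genes with several regions and the 10 words with the smallest p per test. grk-1, C25B8.8, epg-7, zig-12, C33G3.6, alg-1, rgs-2 and pairs beyond these, and list genes that were not members, were named after their values were seen. Alternatives were other rank and distance limits, each replicate's own list, 1 region per gene, weaker X regions as comparison, other windows and flanks, and a Mantel-Haenszel test of GAGAGA over strata of 5 percentage points of GC.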

Additional observations from a re-analysis of the deposited data

How the results depend on the processing

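Of 70 alternatives 53 kept the direction and the side of the threshold (for counts, stayed within 1.5 times), including those for GC at the summit and for the distance to the next gene. The number of X regions was 121 among the 1500 strongest and 353 among the 6000 strongest. The summit distance difference between X and autosomes, within the 1000 bp that the rule allows, reversed to 34.9 bp among the 1500 strongest. It ranged from -54.6 to 25.8 bp when 1 replicate was left out. Against weaker X regions it was -48.2 bp (permutation p = 0.024). Words more frequent at summits than upstream numbered 0 with 25 bp on each side of the summit, 97 with 100 bp on each side, 20 against the downstream flank, and from 0 to 41 when 1 replicate was left out. Words that differed between X and autosomal summits numbered 0 with 25 bp on each side, 108 with 100 bp on each side, 132 against weaker X regions, and from 7 to 17 when 1 replicate was left out. The log2 odds ratio of GAGAGA passed the threshold at 0.55 with 100 bp on each side and at 1.21 against weaker X regions. That of the MEX core, with 0.5 added to each count, was 4.45 with 50 or 100 bp on each side and passed with the latter. Wider windows hold more words per region, and the lists of single replicates hold other regions. The cause of the remaining shifts was not tested. With 1 group of 2 samples and unknown depth, no difference between embryos could be tested.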
